A study of Mus musculus with 8 samples.

Results

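Outer hair cells of the cochlea amplify sound by changing their length, and they do so with a small set of specialised proteins. Prestin, encoded by Slc26a5, is the voltage-driven motor of their lateral wall. Oncomodulin, encoded by Ocm, buffers calcium, and stereocilin, encoded by Strc, links the tips of neighbouring stereocilia and attaches the bundle to the tectorial membrane. These 3 genes were followed here together with Aqp11 (a water channel of intracellular membranes), Sri (sorcin, a calcium-binding protein that regulates ryanodine receptors in heart muscle) and Lbh (a transcription cofactor that responds to Wnt signals in mouse mammary epithelium). They were picked by name as outer hair cell motor, calcium buffer, water channel and bundle genes, and all 6 were found among the 25343 genes of the deposited table. All 6 passed the minimum level for testing, as did 18203 genes in all.

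Hair cells were collected from cochleae of Ndp KO mice and WT mice and sequenced as full-length cDNA, with 4 libraries of each genotype. Ndp encodes norrin, a secreted ligand of the receptor Fzd4. Mice of both genotypes had a mixed C57BL/6 and 129 background, were 4 to 6 days old (an age before the onset of hearing in mice) and carried the Atoh1-GFP reporter used for sorting, and each tube pooled 12 to 20 sensory epithelia. The labels give the same age range for every library, so a difference in age within that range between the pools was not tested. The sources used here do not describe the knockout allele. Prestin synthesis in rodents starts around birth and increases during early postnatal life.

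Recovered reads numbered 35077950 to 48329827 per library, and values below are the authors' normalized counts, which are reads divided by 1 size factor per library. Ndp itself had 10.5, 22.6, 66.8 and 45.1 normalized counts in KO replicates 1 to 4, against 174, 90.4, 114 and 206 in WT replicates 1 to 4, so the genotypes did not overlap in the direction of the labels. The log2 difference of Ndp, KO minus WT, was -2.20 ± 0.56 (SE), with a limma adjusted p of 0.895. General hair cell markers split evenly, with 8 of 16 higher on average in KO, and their summed level was 386071 to 414618 normalized counts in KO and 335727 to 447793 in WT. Supporting cell markers were abundant as well, at 243799.9 to 328199.7 normalized counts in KO and 191196 to 392601 in WT for the sum of 11 genes. Most of that sum was 1 gene, Tectb, at 179660 ± 27911 in KO and 214099 ± 73356 in WT (SD, n = 4 each). Whether these markers come from carried-over cells, free RNA or the hair cells themselves was not tested. Whether the pools came from separate litters is not given, so each p-value reflects the spread among these 8 libraries and that spread may be technical.

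Slc26a5 and Sri varied together over the libraries, while Lbh followed Slc26a5 less closely. The stretches of genome just upstream of these 3 genes are shown. Each is the 250 bases before the RefSeq start site of that gene in build GRCm38.p6 (the assembly called mm10), 5′ to 3′ on the strand of the gene. Only in these 3 of the 6 genes does that start site coincide with the 5′ end of the gene in the deposited table, and the display was limited to them. Capitals mark matches, on either strand, to GGGCGG (the GC box) or TATAAA (the TATA box). CAGCTG and CAGATG (E-boxes of the type bound by basic helix-loop-helix factors such as Atoh1) and AGGTCA (a half-site of nuclear receptors) were searched in the same way. None of these matches overlap each other in the sequences shown.
Slc26a5, chr5:21865605-21865854, minus strand: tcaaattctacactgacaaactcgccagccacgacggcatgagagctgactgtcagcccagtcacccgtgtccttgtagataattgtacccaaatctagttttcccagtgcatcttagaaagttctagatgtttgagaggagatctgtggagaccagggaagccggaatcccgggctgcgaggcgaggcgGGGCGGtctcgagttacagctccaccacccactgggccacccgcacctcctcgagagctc
Sri, chr5:8045828-8046077, plus strand: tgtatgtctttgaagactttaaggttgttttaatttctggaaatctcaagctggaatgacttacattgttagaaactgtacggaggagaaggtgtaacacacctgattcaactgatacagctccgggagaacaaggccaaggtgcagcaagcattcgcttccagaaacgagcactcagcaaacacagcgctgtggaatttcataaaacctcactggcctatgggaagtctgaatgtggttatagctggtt
Lbh, chr17:72918055-72918304, plus strand: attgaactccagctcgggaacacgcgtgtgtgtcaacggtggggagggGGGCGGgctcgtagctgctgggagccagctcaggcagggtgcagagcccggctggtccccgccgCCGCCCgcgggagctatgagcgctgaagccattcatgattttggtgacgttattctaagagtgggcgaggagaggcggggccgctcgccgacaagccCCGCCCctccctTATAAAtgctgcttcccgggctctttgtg
The Slc26a5 window held 1 match, a GC box, the Sri window held 0, and the Lbh window held 4, of which 1 was a TATA box and 3 were GC boxes. Aqp11 followed Slc26a5 about as closely as Sri did, with an r of 0.86 against 0.85. Its window is not shown: it held 1 match, to AGGTCA, and its RefSeq start lies 42 bases from the start in the deposited table. The windows of Ocm and Strc are not shown either and held 0 matches each. Their RefSeq starts lie 23939 (Ocm) and 6228 (Strc) bases from the starts in the deposited table. Among 32817 RefSeq windows of this length, 32.7% held GGGCGG, 12.4% TATAAA, 13.0% CAGCTG, 14.5% CAGATG and 14.0% AGGTCA. These matches describe letters in a window, and nothing about a factor was read from their presence or absence.

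Prestin transcripts were higher on average in the knockout, with a log2 difference that nearly equalled that of Ocm and the widest spread of the 6 genes among KO libraries. Slc26a5 (ENSMUSG00000029015, chromosome 5, 21810655 to 21865604, minus strand, mm10) had 23324, 8147, 28767 and 16837 normalized counts in KO replicates 1 to 4, against 9536, 12302, 6778 and 10782 in WT replicates 1 to 4. KO replicates 1, 3 and 4 lay above every WT library, while KO replicate 2 lay below 3 of the 4 WT libraries, so the genotypes overlapped. The mean was 19269 ± 8875 in KO and 9849 ± 2339.6 in WT (SD, n = 4 each). The highest KO library held 3.53 times the lowest, and the highest WT library 1.82 times the lowest. The log2 difference of Slc26a5, KO minus WT, was 0.86 ± 0.34 (SE), with an unadjusted p of 0.0310 and an adjusted p of 0.895 in limma, which was not a call. The 95% interval of this difference, which is not adjusted for the number of genes, ran from a 1.07-fold to a 3.07-fold higher level in KO. In the authors' deposited table the unshrunken log2 fold change of Slc26a5 was 0.97 as KO over WT (it is deposited as WT over KO, and its sign was turned), with the authors' adjusted p at 0.391.

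**Figure D1:**
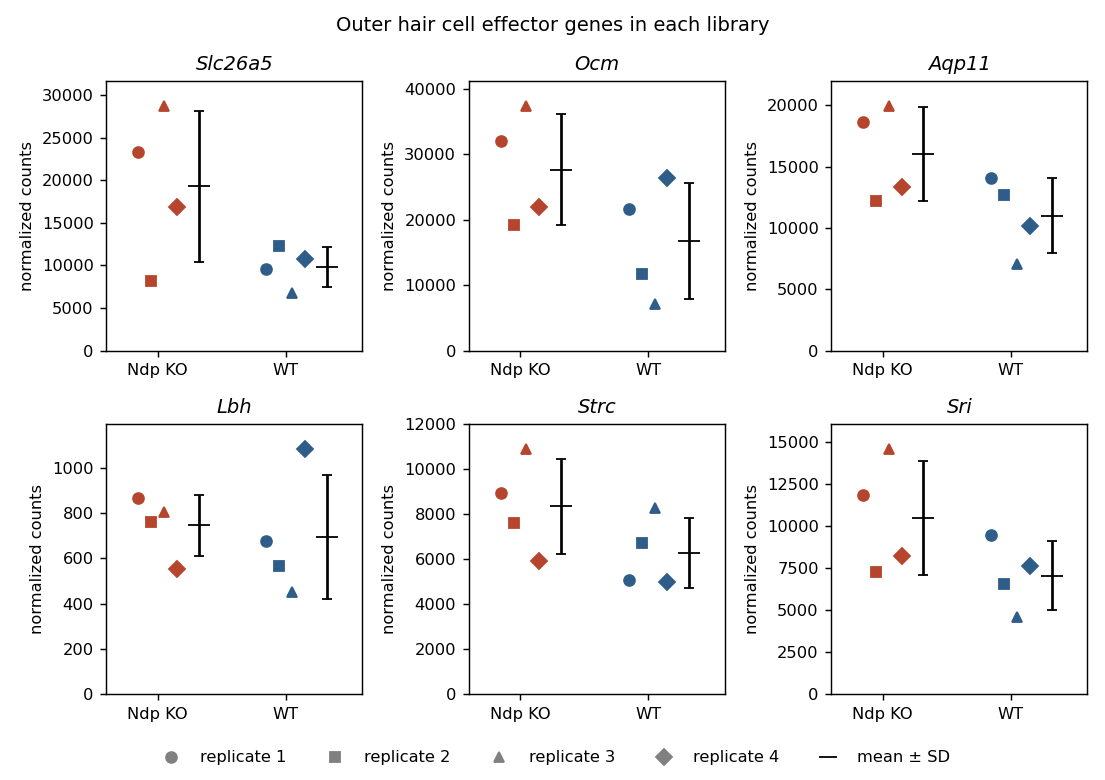
Normalized counts (vertical axes, from 0) of the 6 genes in each library of Ndp KO and WT mice, with the mean ± SD of each genotype as a black bar and a symbol for each replicate. The genotypes overlap for every gene; for Slc26a5 only KO replicate 2, at 8147, lies within the WT range.

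KO replicate 2 was the only KO library within the WT range of Slc26a5. Without KO replicate 2 the log2 difference was 1.22 ± 0.24 (SE), with an unadjusted p of 0.000526 and an adjusted p of 0.526 in limma. Without both libraries whose titles carry the same date (KO replicate 2 and WT replicate 2) it was 1.34 ± 0.24 (SE), and limma gave an adjusted p of 0.329. KO replicate 2 held the lowest KO value of Slc26a5 and WT replicate 2 the highest WT value. Leaving out either can only raise the difference, so these fits describe the spread and are no independent evidence. Against 0.86 with all libraries, the log2 difference of Slc26a5 was 0.61 without KO replicate 3 (unadjusted p of 0.0956 in limma). It was 0.69 without WT replicate 3 (unadjusted p of 0.0898 in limma) and 0.72 without KO replicate 1 (0.0848). Without KO replicate 4 or WT replicate 1, 2 or 4 it was 0.85 to 0.97. In the 6 libraries without the shared date the lowest KO value was 16837 and the highest WT value 10782, and 7.71% of all tested genes had every one of the 3 KO libraries above every one of the 3 WT libraries. Within the pair of the shared date the direction was the opposite, with 8147 normalized counts in KO and 12302 in WT. What the title dates stand for is not given, and their part in the result was not tested beyond these values.

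Calcium-binding genes came next. Ocm (ENSMUSG00000029618, chromosome 5, 144019804 to 144026670, minus strand) had 32067, 19235, 37468 and 22006 normalized counts in KO replicates 1 to 4, against 21608, 11674, 7146 and 26417 in WT replicates 1 to 4. All 4 KO libraries lay above the WT median, and 2 lay above the highest WT library. For Ocm it was the WT libraries that were spread, with a highest over lowest ratio of 3.70 in WT and 1.95 in KO. The mean was 27694 ± 8536 in KO and 16711 ± 8852 in WT (SD, n = 4 each), and the log2 difference was 0.85 ± 0.38 (SE), with an unadjusted p of 0.0458 and an adjusted p of 0.895 in limma. The difference of Ocm was 0.50 without WT replicate 3, the WT library with the lowest Ocm, and 1.13 without WT replicate 4, the WT library with the highest.

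Sri (ENSMUSG00000003161, chromosome 5, 8046078 to 8069379, plus strand) had 11806, 7256, 14572 and 8202 normalized counts in KO replicates 1 to 4, against 9444, 6505, 4546 and 7613 in WT replicates 1 to 4. KO replicates 1 and 3 lay above every WT library, and the other KO libraries lay among them. The mean of Sri was 10459 ± 3371 in KO and 7027 ± 2050.3 in WT (SD, n = 4 each). Its log2 difference was 0.57 ± 0.26 (SE), with an unadjusted p of 0.0543 and an adjusted p of 0.899 in limma, and it was 0.37 without WT replicate 3, the WT library with the least Sri.

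Aqp11 (ENSMUSG00000042797, chromosome 7, 97724006 to 97738289, minus strand) had 18628, 12164, 19964 and 13312 normalized counts in KO replicates 1 to 4, against 14025, 12646, 7078 and 10195 in WT replicates 1 to 4. Again KO replicates 1 and 3 stood above all WT libraries and the remaining KO libraries fell within the WT range. The mean of Aqp11 was 16017 ± 3854 in KO and 10986 ± 3049 in WT (SD, n = 4 each), and its log2 difference was 0.56 ± 0.23 (SE), with an unadjusted p of 0.0364 and an adjusted p of 0.895 in limma. It was 0.36 without WT replicate 3, the library with the least Aqp11, where the unadjusted p in limma was 0.103.

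The bundle gene Strc (ENSMUSG00000033498, chromosome 2, 121363728 to 121387168, minus strand) had 8962, 7619.9, 10909.7 and 5912 normalized counts in KO replicates 1 to 4, against 5076, 6715, 8259.8 and 4992 in WT replicates 1 to 4. KO replicates 1 and 3 were again the only libraries above every WT library, but the WT library with the most Strc was replicate 3, which held the least of each of the other 5 genes among all 8 libraries. The mean of Strc was 8351 ± 2114 in KO and 6261 ± 1551 in WT (SD, n = 4 each), and its log2 difference was 0.41 ± 0.22 (SE), with an unadjusted p of 0.0862 and an adjusted p of 0.916 in limma. It was 0.27 without KO replicate 3, the library with the most Strc. Strc overlaps the creatine kinase gene Ckmt1 on the opposite strand by 10 bases, and the library kit does not mark strand. Ckmt1 had 4439 ± 506 normalized counts in KO and 3398 ± 438 in WT (SD, n = 4 each), with a log2 difference of 0.39 ± 0.14 (SE) and an adjusted p of 0.895 in limma. The other 5 genes overlap no gene of the table.

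Lbh (ENSMUSG00000024063, chromosome 17, 72918305 to 72941947, plus strand) had 868, 760.1, 803 and 554 normalized counts in KO replicates 1 to 4, against 675, 567, 449.9 and 1085 in WT replicates 1 to 4. The highest value belonged to a WT library, and no KO library lay above it. The mean of Lbh was 746 ± 135 in KO and 694 ± 276 in WT (SD, n = 4 each). Its log2 difference of 0.16 ± 0.27 (SE) had an unadjusted p of 0.562 and an adjusted p of 0.987 in limma, and an interval from a 0.738-fold to a 1.70-fold level in KO. It turned to -0.02 without WT replicate 3.

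**Figure D2:**
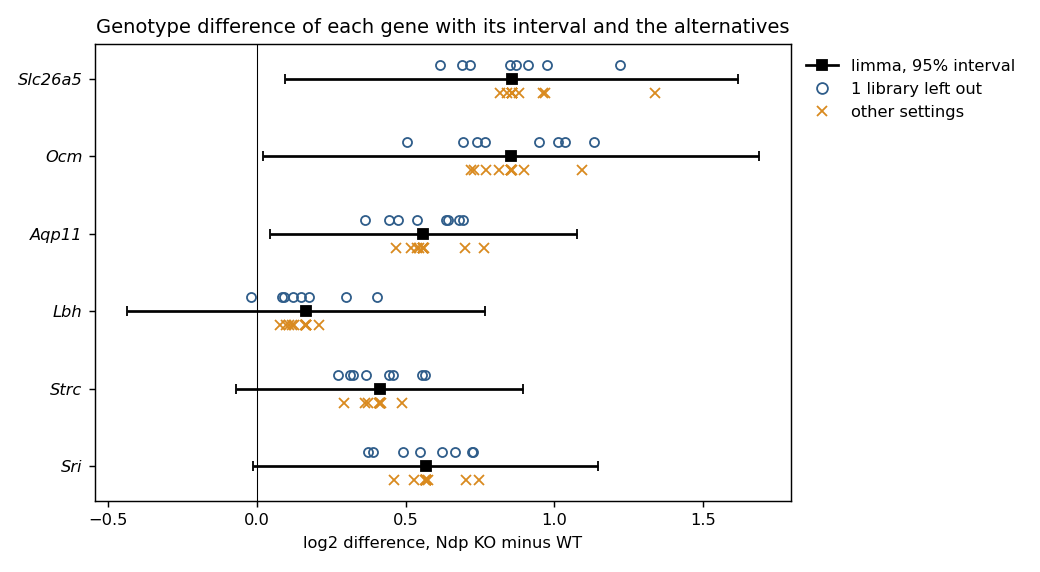
Log2 difference, Ndp KO minus WT, of each gene (horizontal axis), with the limma value and its 95% interval as a black square and bar, values with 1 library left out as circles and values under other settings as crosses. All crosses lie above 0, and of the circles only that of Lbh without WT replicate 3, at -0.02, lies below it.

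Counted together, 6 of 6 genes had a positive log2 difference with a median of 0.56, where 52.5% of all tested genes had a positive one and the median of all was 0.02. No gene of the 6 was called by limma, which called 1 of 18203 genes (0.00549%, a gene that is not among them). At an unadjusted p under 0.05 limma listed 3 of the 6, all higher in KO (Slc26a5, Ocm and Aqp11), where 5.57% of all tested genes were listed in either direction and 3.1% as higher. That count was 0 of 6 without KO replicate 1 and without KO replicate 3, 1 of 6 without WT replicate 3 and with scaling to the general hair cell markers, and 4 of 6 without KO replicate 2 or KO replicate 4. No gene of the 6 had genotypes that did not overlap, which held for 3.04% of all tested genes, and for 1.46% with KO above WT. On the recovered reads, the quasi-likelihood test of edgeR called 0 of the 6 and 0 of all genes, with 4.55% of all genes at an unadjusted p under 0.05, and gave Slc26a5 an unadjusted p of 0.0158 and Aqp11 one of 0.0424. DESeq2 called 0 of the 6 and 0.136% of all genes, and its lowest adjusted p among the 6 was 0.391, for Slc26a5. For the 6 genes this run gave nearly the same values as the authors' deposited comparison, so it is no separate result. At an unadjusted p under 0.05 DESeq2 listed 3 of the 6 (Slc26a5, Aqp11 and Sri), where 6.09% of all genes were listed. The 6 genes were picked with earlier results of these libraries known and share the same libraries, so these counts describe them and are no independent evidence of a direction.

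The same libraries were high or low for most of the genes. KO replicate 3 held the highest of the 8 values for 5 of the 6 genes, all but Lbh, while it was the highest of the 8 libraries for 11.6% of all tested genes. KO replicate 1 came second for all 6. WT replicate 3 held the lowest of the 8 values for 5 of the 6, all but Strc, while it was the lowest for 14.8% of all tested genes. Summed over the 6 genes, KO replicates 1 to 4 held 95655, 55181, 112483 and 66822 normalized counts, against 60363, 50409, 34257 and 61085 in WT replicates 1 to 4. The lowest KO sum, that of replicate 2, lay below the sums of WT replicates 1 and 4. No single value stood apart from the other 3 of its genotype by Dixon's criterion for any of the 6 genes.

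**Figure D3:**
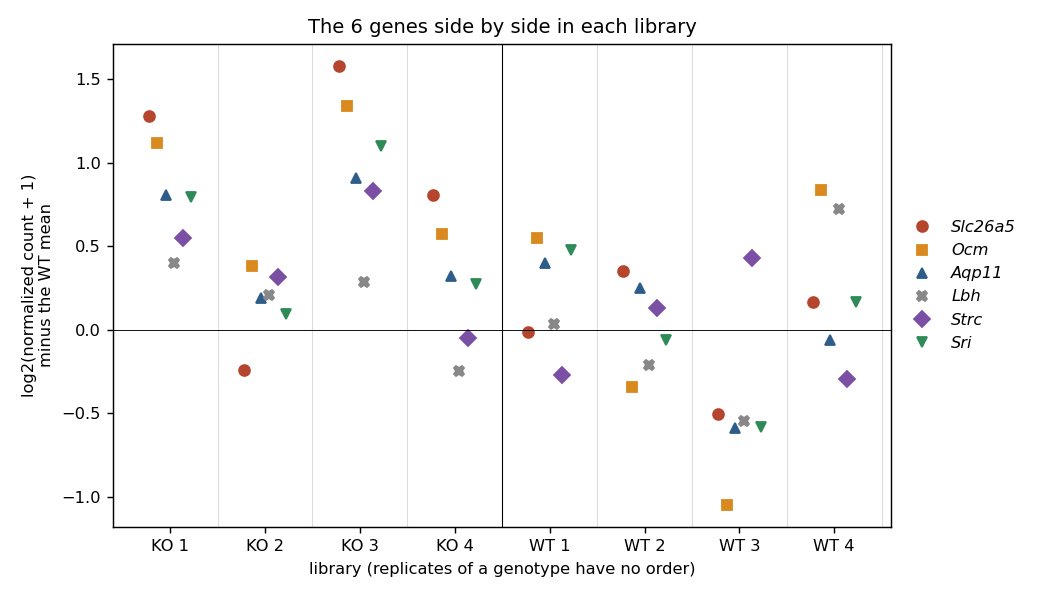
Level of the 6 genes in each library as log2(normalized count + 1) minus the WT mean of that gene (vertical axis), with KO libraries left of the line and WT libraries right of it. KO 1 and KO 3 hold the high values of 5 genes, WT 3 the low values, and Strc in WT 3, at 0.43, and Slc26a5 in KO 2, at -0.24, depart from the other genes of their library.

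Aqp11 and Sri, and Ocm and Sri, were the pairs that varied most closely together across the libraries. Over 15 pairs of genes, Pearson's r across the 8 libraries, computed on log2 values, ran from -0.07 (Lbh and Strc) to 0.94 (Aqp11 and Sri), and 14 of the 15 were positive. Slc26a5 and Ocm, the genes with the largest log2 differences, had an r of 0.75 that did not pass after adjustment (exact permutation p = 0.0318, adjusted 0.0682) and an r of 0.50 without KO replicates 1 and 3. Aqp11 and Sri had an r of 0.94 (exact permutation p = 0.00119, adjusted over the 15 pairs 0.00893) and a Spearman's rho of 0.90 (exact permutation p = 0.00456, adjusted 0.0342). Without KO replicate 3 and WT replicate 3, the libraries farthest from the median of Aqp11, their r was 0.82 (exact permutation p = 0.0569, n = 6). Ocm and Sri had an r of 0.92 (exact permutation p = 0.00102, adjusted 0.00893) and a rho of 0.90 (exact permutation p = 0.00456, adjusted 0.0342), and an r of 0.87 without WT replicates 2 and 3 (exact permutation p = 0.0278, n = 6). These were the only pairs whose rho passed after adjustment, while r passed for 6 pairs. The permutations ran over all 8 libraries regardless of genotype, so these p-values include any shift between the genotypes that both genes share.

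Prestin followed Aqp11 and Sri less tightly. Slc26a5 and Aqp11 had an r of 0.86 (exact permutation p = 0.00533, adjusted 0.0240) and a rho of 0.81 (exact permutation p = 0.0218, adjusted 0.0817), and Slc26a5 and Sri an r of 0.85 (exact permutation p = 0.00640, adjusted 0.0240) and a rho of 0.76 (exact permutation p = 0.0368, adjusted 0.110). Without KO replicates 1 and 3, r was 0.64 for Slc26a5 with Aqp11 (exact permutation p = 0.192, n = 6) and 0.54 with Sri (exact permutation p = 0.253, n = 6). These were the 2 libraries with the most prestin, and leaving them out also narrows its range. After the mean of each genotype was subtracted, r was 0.92 for Aqp11 and Sri, 0.88 for Ocm and Sri, and 0.77 for Slc26a5 with either Aqp11 or Sri, given as a description. Lbh went with Ocm (r = 0.79, exact permutation p = 0.0180, adjusted 0.0451; rho = 0.74, exact permutation p = 0.0458, adjusted 0.115), with an r of 0.44 without WT replicates 2 and 3 (exact permutation p = 0.396, n = 6).

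**Figure D4:**
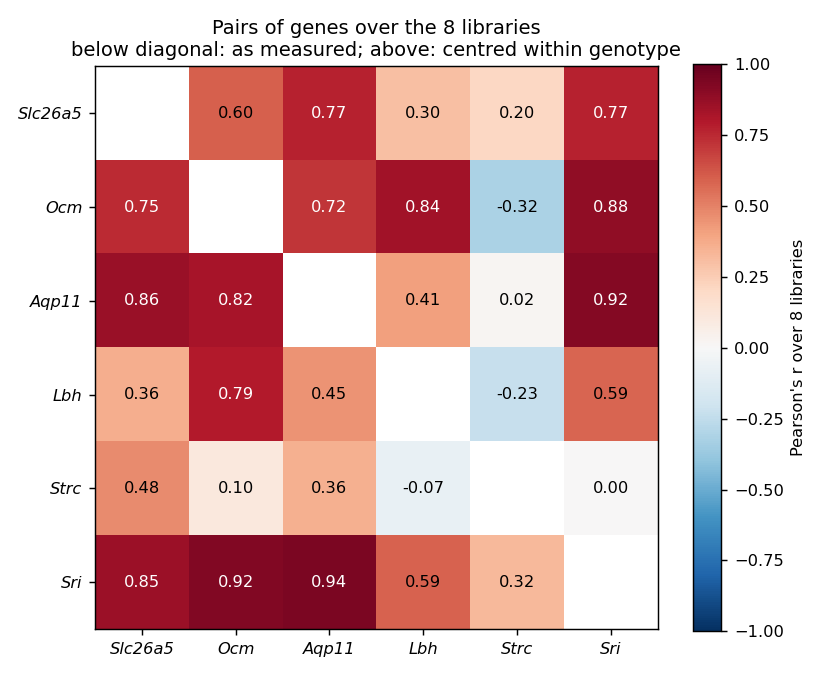
Pearson's r between each pair of the 6 genes over 8 libraries, as measured below the diagonal and after subtraction of each genotype's mean above it. Aqp11 and Sri (0.94) and Ocm and Sri (0.92) are the pairs with the highest r, and the row and column of Strc hold values of -0.32 to 0.20 once centred.

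Among 18202 other tested genes, the 8 whose libraries followed Slc26a5 most closely, with a mean of at least 100 normalized counts and a standard symbol, were Sh2d4b, Enpp4, Fancg, Mfap1a, Pank1, Sesn1, Wdr72 and Tmem145. Their r over the 8 libraries ran from 0.94 to 0.97, as a description with no test, since they were the extremes of all genes, 33 of which had an r above 0.9. None of the other 5 genes of the group was among them. Aqp11 ranked 86th and Sri 99th, Ocm 440th, Strc 2459th and Lbh 3893rd. Sh2d4b, the gene of an SH2 domain protein, had 3655 ± 456 normalized counts in KO and 3137 ± 81.5 in WT (SD, n = 4 each). Pank1, which encodes an enzyme of coenzyme A synthesis, had 526 ± 125 in KO and 353 ± 53.1 in WT, and Sesn1, a stress-induced gene, had 1007 ± 393 in KO and 703 ± 98.5 in WT (SD, n = 4 each). Mfap1a has a near-identical copy in the genome, so its reads may be split and its value is uncertain. None of the 8 passed in limma, with adjusted p of 0.895 to 0.958.

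Compared per length, Ocm was by far the most abundant of the 6. Levels were divided by the longest protein-coding transcript of GENCODE vM21, and the transcripts used were 0.658 to 5.756 kilobases long. Per kilobase Ocm had 42088 ± 12972 normalized counts in KO and 25397 ± 13452 in WT (SD, n = 4 each), above 99.7% of tested genes. Slc26a5 had 6505 ± 2996 per kilobase in KO and 3325 ± 789.9 in WT, Aqp11 4286 ± 1031 in KO and 2939.8 ± 816 in WT, and Sri 4177 ± 1346 in KO and 2806 ± 819 in WT (SD, n = 4 each). These 3 did not separate: Slc26a5 lay above Aqp11 in 6 of 8 libraries and Aqp11 above Sri in 5 of 8, and with exons of all transcripts merged Sri lay above Aqp11, whose merged exons are 9.418 kilobases long. Strc, at 1451 ± 367 per kilobase in KO and 1088 ± 269 in WT, lay below Sri and above Lbh in 8 of 8 libraries. Lbh had 243 ± 44.1 per kilobase in KO and 226 ± 90.0 in WT, near the middle of tested genes, 54.5% of which lay below it.

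Other genes of outer hair cells were set beside the 6 without a test of the difference. Of 10 such genes, 9 were tested, 8 had a positive log2 difference, the median was 0.16, and limma called 0. The potassium channel gene Kcnn2 had 3526 ± 198 normalized counts in KO and 2891 ± 387 in WT with no overlap of the genotypes, and the nicotinic receptor gene Chrna9 had 22960 ± 2756 in KO and 19580 ± 3213 in WT (SD, n = 4 each). Its partner Chrna10 had 39602 ± 2547 in KO and 40623 ± 708 in WT (SD, n = 4 each). Ikzf2, a transcription factor of outer hair cell identity, had 572 ± 217 in KO and 372 ± 184 in WT (SD, n = 4 each). The log2 difference of Ikzf2 was 0.68 ± 0.40 (SE), larger than that of 4 of the 6 genes, and its unadjusted p in limma 0.117. Insm1, a transcription factor that keeps outer hair cells from taking on inner hair cell features, had a log2 difference of 0.42 ± 0.56 (SE). For 9 inner hair cell genes the median was also 0.16, with 7 positive and 0 called. Among them Atp2a3, a calcium pump gene, had 19080.0 ± 5667 in KO and 12351 ± 7889 in WT (SD, n = 4 each). The log2 difference of Atp2a3 was 0.76 ± 0.35 (SE), also larger than that of 4 of the 6 genes. Its unadjusted p in limma was 0.0535. Shtn1 ran from 858 to 1090 normalized counts in KO, above its WT range of 582 to 848. The log2 difference was 0.38 ± 0.18 (SE) for Shtn1 and 0.42 ± 0.27 (SE) for Otof. The glutamate transporter gene Slc17a8 had 270.1 ± 105 in KO and 247 ± 75.0 in WT (SD, n = 4 each). In bulk libraries a different number of outer hair cells in the pool and a different amount of RNA per cell cannot be told apart. With every library scaled to its general hair cell markers, the log2 difference was 0.82 for Slc26a5, 0.81 for Ocm, 0.53 for Sri, 0.52 for Aqp11, 0.37 for Strc and 0.12 for Lbh.

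Relatives and partners of the 6 proteins were looked at next, and limma called none of them. Of 10 other genes of the Slc26 anion transporter family, 9 were in the table, 5 were tested and 2 had a positive log2 difference, with a median of -0.07. Slc26a6 had 405 ± 45.7 normalized counts in KO and 305 ± 108 in WT, and Slc26a2, a sulfate transporter gene, 739.7 ± 139 in KO and 766 ± 379 in WT (SD, n = 4 each). Of 12 genes of prestin partners and the spectrin cortex under the outer hair cell membrane, 11 were tested, 7 were positive, and the median was 0.05. The calmodulin gene Calm2 had 141928 ± 8323 in KO and 132351 ± 38569 in WT, and the spectrin gene Sptbn1 had 10759.98 ± 1117 in KO and 10700.5 ± 3384 in WT (SD, n = 4 each). Sptbn4, a further spectrin gene with low counts, had 70.03 ± 24.6 in KO and 27.7 ± 28.5 in WT (SD, n = 4 each), with an unadjusted p of 0.0450, the lowest of that list.

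The EF-hand calcium buffers related to or used beside oncomodulin differed little. All 4 had a positive log2 difference, with a median of 0.14. Pvalb, the gene of parvalbumin and the closest relative of Ocm, had 10083 ± 865 normalized counts in KO and 9473 ± 2338 in WT (SD, n = 4 each), and its log2 difference was 0.12 ± 0.17 (SE). Calb2 had 42261 ± 3828 in KO and 37555 ± 2421.5 in WT (SD, n = 4 each). Of 6 genes of the penta-EF-hand family of sorcin, 4 were positive with a median of 0.06, and the calpain gene Capn2 had 3856 ± 377 in KO and 3633 ± 1593 in WT (SD, n = 4 each). Of 6 genes of calcium channels, pumps and exchangers that sorcin is known to act on, 5 were tested and 3 were positive, with a median of 0.23, and the calcium pump gene Atp2a2 had 12363 ± 902 in KO and 11072 ± 3982 in WT (SD, n = 4 each). Of 11 other aquaporins, 7 were in the table, 5 were tested and 3 had a positive log2 difference, with a median of 0.93. Aqp1 had 137 ± 63.5 normalized counts in KO and 82.3 ± 66.1 in WT (SD, n = 4 each). The log2 difference was 1.15 ± 1.04 (SE) for Aqp8 and -0.40 ± 0.46 (SE) for Aqp7, both with low counts. The supporting cell aquaporin gene Aqp4 had 859.6 ± 313 in KO and 1028 ± 448 in WT, and Aqp5 408 ± 169 in KO and 229 ± 122 in WT (SD, n = 4 each), with an unadjusted p of 0.0584, the lowest of the aquaporins.

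Of 10 genes of bundle attachment and the tectorial membrane, 9 were tested and 6 had a positive log2 difference, with a median of 0.19 and 0 called. Tub, the gene of the tubby protein, had 1184 ± 352 normalized counts in KO and 416 ± 275 in WT (SD, n = 4 each), and its genotypes did not overlap. Its log2 difference was 1.75 ± 0.48 (SE), with an unadjusted p of 0.00383 and an adjusted p of 0.895 in limma. Otoa, a relative of Strc, had 10209 ± 2468 in KO and 7777 ± 2324 in WT, and the stereocilia phosphatase gene Ptprq had 16530.2 ± 2019 in KO and 12424 ± 6080.1 in WT (SD, n = 4 each). Emilin2 had 4929 ± 1117 in KO and 3828 ± 2452 in WT (SD, n = 4 each).

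Markers of other cells that a sort can carry over were read beside these values. Macrophage markers had a positive log2 difference in 11 of 12 genes with a median of 1.79, larger than the 0.56 of the 6 genes, and 5 of the 12 had an unadjusted p under 0.05 in limma, all higher in KO, with 0 called. Their summed level was 3819 to 6137 normalized counts in KO and 2098 to 5138 in WT, and Ptprc and Adgre1 were each at 0 reads in 1 library. Some of these markers had low counts in WT, such as Tyrobp, at 3.65 and 7.02 normalized counts in WT replicates 2 and 3. Endothelial markers were positive in 5 of 6 tested genes with a median of 1.43, 1 of them at an unadjusted p under 0.05, and had a sum of 189 to 327 in KO and 92.2 to 197 in WT, and Tek and Flt1 were each at 0 reads in 2 libraries. Mesenchyme markers were positive in 7 of 10 with a median of 0.64, 3 of them at an unadjusted p under 0.05 and higher in KO, and had a sum of 18781 to 35963 in KO and 17439.9 to 24352 in WT. Supporting cell markers were negative in 7 of 11, with the Notch effector genes Hes5 and Hey1 lower in every KO library than in any WT library. Neuron markers were positive in 2 of 4 and glia markers in 4 of 6, and red blood cell genes had a sum of 1.96 to 66.8 in KO and 2.33 to 84.0 in WT. Library by library these lists did not run with the 6 genes throughout. The mean of the macrophage list, relative to the WT mean, was 2.46 in KO replicate 4 and 1.81 in KO replicate 3, where the mean of the 6 genes was 0.28 and 1.01. The macrophage mean was also high in WT replicate 1, at 2.18, where the mean of the 6 genes was 0.20. The part of these cells in the result was not tested.

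**Figure D5:**
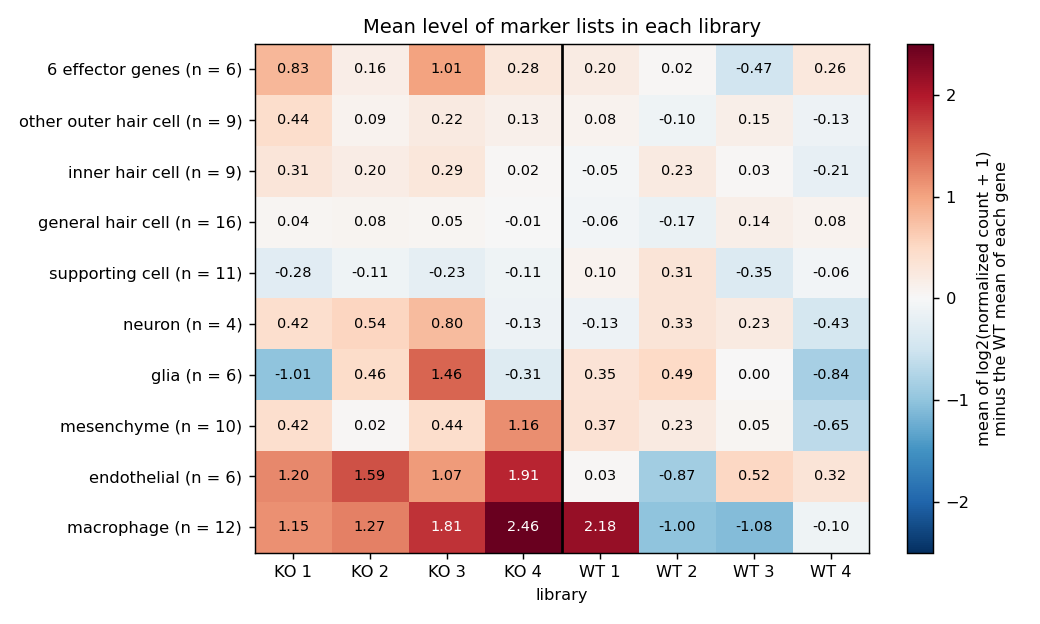
Mean of log2(normalized count + 1) minus the WT mean of each gene, over the tested genes of 10 lists (rows, with the number of genes), in each KO library left of the line and each WT library right of it. The 6 genes reach 1.01 in KO 3 and -0.47 in WT 3, while the mean of the general hair cell list stays between -0.17 and 0.14 in all 8 libraries. Single genes of that list spread more widely than its mean. Pcp4 ran from 69823 to 77951 normalized counts in KO and from 43902 to 123500 in WT.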

How the data were processed

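RNA of Atoh1-GFP sorted cochlear cells was measured in 8 libraries, per the labels made with SMART-Seq v4 and Nextera XT. The authors deposited 1 table of 25343 genes whose signal columns, 1 for each library, hold reads divided by a size factor, as the values show. Whether the whole numbers recovered from them, called reads here, were counted or rounded from Salmon estimates is not stated. Tools listed in the submitters' processing notes, without their roles, were DESeq2 1.26.0, Salmon 0.14.2 and bcl2fastq 2.20, with the build mm10. Columns of log2 fold changes and p-values between the genotypes were deposited by the authors too. Dividing each column by its smallest value above 0 gave whole reads for 100% of 202744 values within a relative 1e-06. The smallest gene total was 10 reads, and 3 reads were worth 2.34 to 3.49 normalized counts. On these reads edgeR called 0 genes and DESeq2 34.

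Groups are the genotype labels, and replicates were numbered by accession, so a number pairs nothing. The main test was limma 3.58.1 (R 4.3.3, intensity trend, two-sided, Benjamini-Hochberg adjustment over all genes tested, threshold 0.05) on log2(normalized count + 1), for genes with at least 10 normalized counts in at least 4 libraries. A fold change on that scale understates low genes. edgeR 4.0.16 and DESeq2 1.42.0 on the recovered reads, another scaling, a surrogate variable (sva 3.50.0), weights, filters and pseudocounts were alternatives, and the script was tested on simulated data. Reads of full-length cDNA increase with transcript length, so levels of different genes were compared per kilobase of transcript. The named genes are the 6 genes, Ndp, overlapping genes, the 8 most like Slc26a5 and, from each list, genes among its 4 smallest limma p-values or markers at 0, not all of which are printed. Insm1, Chrna10, Slc17a8, Slc26a2, Calm2, Sptbn1, Aqp4, Pcp4, Tyrobp and Tectb were added with their values known. The 6 genes and all lists were chosen with earlier results of these data known.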

Additional observations from a re-analysis of the deposited data

How the results depend on the processing

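Across 19 alternatives no gene of the 6 passed the threshold of 0.05, and the lowest adjusted p for any of them was 0.329. The log2 difference kept its sign in all 19 for Slc26a5 (0.61 to 1.34), Ocm (0.50 to 1.13), Aqp11 (0.36 to 0.76), Strc (0.27 to 0.57) and Sri (0.37 to 0.75). For Lbh it was -0.02 to 0.40 with 1 library left out, and -0.019 without WT replicate 3, where 5 of the 6 genes were positive. The number of the 6 genes at an unadjusted p under 0.05 was 0 to 4, against 3 with all libraries. The median of the other outer hair cell genes was 0.09 to 0.23. Limma called 1 gene of the whole table, and 0 to 2 with 1 library left out. The count was 0 with a pseudocount of 0.1, with a minimum of 100 normalized counts, with 1 surrogate variable, without the libraries of the shared title date and by edgeR, and 34 by DESeq2, and the cause was not tested. No paired analysis was possible because the replicate numbers follow accession order and only 1 title date occurs in both genotypes. With 4 libraries per genotype and an SD of the log2 values up to 0.86 within a genotype, the spread between libraries limits the precision more than depth does, since each of the 6 genes held at least 504 reads in every library.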
